A study of Mus musculus and Rattus norvegicus with 37 samples.

Results

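The urea cycle and nitrogen handling genes described here are 10 genes chosen by name, namely Cps1, Otc, Ass1, Asl, Arg1, Nags, Glul, Gls2, Got1 and Oat. Each was found once in every table, as 10 of 47929 uniquely named genes in each of 2 mouse tables and 10 of 28026 in each of 2 rat tables. Each had a mean of at least 10 normalized counts and was therefore tested in every comparison. The values are DESeq2-normalized counts per gene from liver RNA-seq of 21 mice and 16 rats, and each table was normalized on its own.

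All mice were C57BL/6J females on chow, and their livers were taken in the fed state on day 7. LNA29 is a pair of locked nucleic acid oligonucleotides against the miR-29 family, injected once under the skin at 20 mg/kg each, and controls received saline. The WT/Floxed group joins WT mice of 9 to 11 weeks with floxed littermates of the knockout, aged 15 to 20 weeks. It held 8 LNA29-treated mice (4 WT and 4 floxed) and 5 saline-treated mice (3 WT and 2 floxed) after the authors left out 1 floxed mouse. Background and age cannot be told apart in this group. Mice labelled L-Sirt1 KO carry a deletion of Sirt1 meant for the liver alone and were also 15 to 20 weeks old, with 4 given LNA29 and 4 given saline. The male rats were ZFR, which are obese Zucker Fatty fa/fa rats, and ZLR, their Zucker Lean controls, both 5.5 months old (n = 4 each). A second pair of groups held ZFR of 3 months given vehicle (DMSO) or BT2, an inhibitor of the kinase that shuts off branched-chain ketoacid dehydrogenase, at 20 mg/kg daily for 7 days (n = 4 each).

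The urea cycle turns the ammonia released from amino acids into urea, which is excreted, and hepatocytes around the portal vein carry most of it. Nags makes the activator of Cps1, Cps1 fixes ammonia as carbamoyl phosphate in mitochondria, and Otc, Ass1, Asl and Arg1 carry the cycle through citrulline, argininosuccinate and arginine to urea and ornithine. Around it, Gls2 frees ammonia from glutamine, and Got1, a cytosolic aminotransferase, can make aspartate, which brings in the other nitrogen atom. Oat links ornithine to glutamate, and Glul captures escaping ammonia as glutamine in the hepatocytes around the central vein.

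The mature miR-29 sequences are shown because they are what LNA29 is directed at, with the seed (bases 2 to 8) in capitals. They are RefSeq sequences of GRCm38.p6, and the 3 share the same seed.
mmu-miR-29a-3p: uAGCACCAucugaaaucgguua
mmu-miR-29b-3p: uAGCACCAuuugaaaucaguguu
mmu-miR-29c-3p: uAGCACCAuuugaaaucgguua
The letters that pair with this seed, TGGTGCT, were searched on the transcribed strand of the annotated 3′ UTRs of GRCm38. Only Cps1 held them among the 10 genes, once, at chr1:67230611-67230617 on the + strand, with the match in capitals and 9 bases on each side.
Cps1: aacatttcaTGGTGCTggtttataa
Over the tested WT/Floxed genes with an annotated 3′ UTR, 2202 of 13483 (16.3%) held such a match, so 1 of 10 does not set these genes apart. A match in letters is a description and not evidence of binding.

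In GRCm38, Cps1 spans 67123026 to 67231259 on chromosome 1, and the transcript used for its length has 38 exons and 5.555 kb. Otc lies on chromosome X from 10252305 to 10321024, Ass1 on chromosome 2 from 31470207 to 31520672, Asl on chromosome 5 from 130011258 to 130029247 and Arg1 on chromosome 10 from 24915221 to 24927484. Nags lies on chromosome 11 from 102145513 to 102149477, Glul on chromosome 1 from 153899944 to 153909723, Gls2 on chromosome 10 from 128194457 to 128210004, Got1 on chromosome 19 from 43499752 to 43524605 and Oat on chromosome 7 from 132557478 to 132576398. Glul contains Mir8114, and the annotated span of Fgfr2 covers all 18921 bases of Oat on the same strand. Overlaps on the opposite strand are 698 bases of Nags with Gm11586, 285 bases of Glul with Teddm2 and 97 bases of Gls2 with Spryd4. The strand setting of the counting is not given in the sources used here, so reads in these overlaps could not be assigned to one gene with certainty. Rat coordinates were not used here.

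Estimated depth was 42.6 to 78.0 M reads per mouse library but 0.188 to 58.5 M per rat library, with 6 rat libraries under 1 M. These 6 are ZLR replicates 3 and 4, ZFR replicate 3, ZFR vehicle replicate 4 and ZFR BT2 replicates 1 and 4. In those libraries 1 read was worth up to 10.5 normalized counts, and Nags rested on only 9 reads in ZLR replicate 4 against at least 493.8 for Cps1. Liver identity was plain from hepatocyte markers (Alb, Apoa1 and others), whose summed counts were 4415310 to 7613930 in the WT/Floxed libraries. Sirt1 gene counts overlapped between the genotypes, whose tables were normalized separately: they ranged from 492.7 to 699.1 in WT/Floxed mice and from 534.6 to 616.5 in mice labelled L-Sirt1 KO. Gene counts do not separate exons, so a transcript lacking an exon would still be counted, and the study's RT-qPCR of Sirt1 is not analysed here.

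In saline-treated WT/Floxed liver the 10 genes together took 1.22% ± 0.0917 of all normalized counts (SD, n = 5). Per kb of transcript, Ass1 was the highest at 129096 ± 8027 normalized counts per kb (SD, n = 5). Arg1 followed at 46003 ± 2885, Cps1 at 38645 ± 6224, Oat at 27671 ± 6103 and Glul at 25344 ± 5267 normalized counts per kb. From Arg1 to Glul, the mean ± SD ranges of neighbours in this order overlapped. The range of Arg1 lay above those of Oat and Glul, and that of Cps1 above that of Glul. These ranges give the spread between mice and leave out that all genes were measured in the same 5 livers. They therefore do not decide the order of neighbours, which was not tested. Otc stood at 13749 ± 843, above Asl (11288 ± 473) and Gls2 (10705 ± 1804), which overlapped, followed by Got1 at 7334 ± 1654 and Nags at 2154 ± 224 normalized counts per kb. Gls2 and Got1 also overlapped within 1 SD, while Nags lay well below all others.

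**Figure D1:**
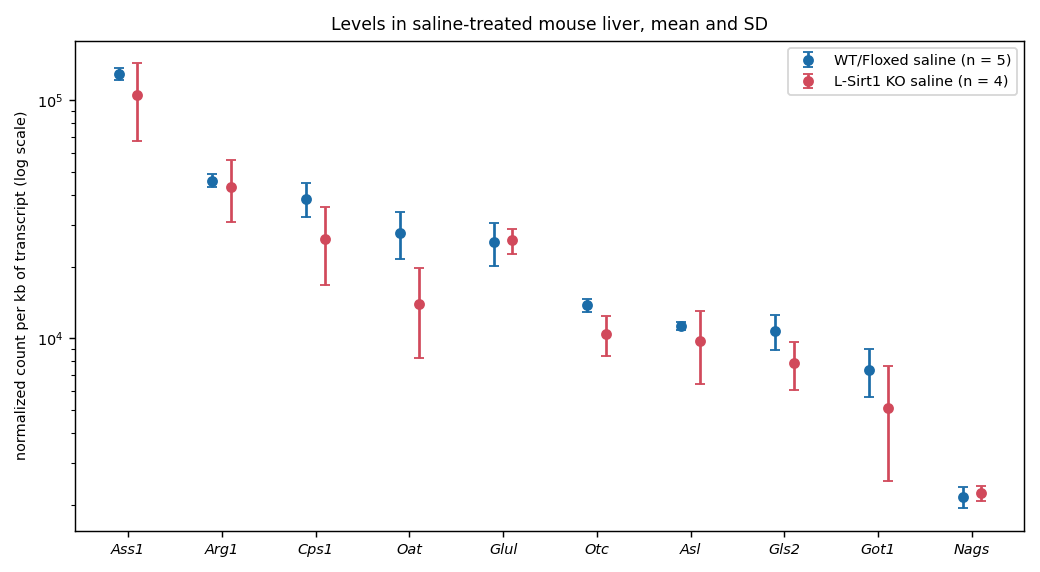
Normalized counts per kb of transcript (log scale) of the 10 genes in saline-treated WT/Floxed mice (blue, n = 5) and saline-treated mice labelled L-Sirt1 KO (red, n = 4), as mean and SD. Ass1 is the highest at 129096 per kb and Nags the lowest at 2154 per kb in WT/Floxed liver; the 2 genotypes were normalized in separate tables, so their levels are set side by side without a test.

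The order was the same in saline-treated mice labelled L-Sirt1 KO except that Glul stood above Oat, with Ass1 at 105437 ± 37862 and Nags at 2238 ± 168 normalized counts per kb (SD, n = 4). Oat was at 13995 ± 5756 normalized counts per kb there, against the 27671 given above for WT/Floxed saline. The libraries of this group varied more, with an SD of 64213 around a mean Ass1 count of 178821, against 13613 around 218946 in WT/Floxed saline. Saline replicate 3 of the mice labelled L-Sirt1 KO held the highest count of its group for 8 of the 10 genes, and replicate 2 the lowest for 6.

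The first question was whether inhibition of miR-29 changed these genes in WT/Floxed liver. LNA29 lowered 4 of the 10 genes, namely Gls2, Asl, Arg1 and Otc, by between 1.22-fold and 1.59-fold, and raised none. These include 3 of the 4 enzymes that follow Cps1 in the cycle and the liver glutaminase. By limma with p under 0.05, Benjamini-Hochberg adjusted p under 0.2, mean count above 50 and fold above 1.2, the background was 1.93% of 15811 tested genes called lower and 4.35% called in either direction. The median log2 fold change of the 10 genes was -0.35, against 0.00 over all genes tested, and 9 of the 10 estimates were below 0. The groups overlapped for each of the 10, whereas they did not overlap for 1.51% of all genes tested. In whole liver, fewer cells of a type and less RNA per cell cannot be told apart.

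Gls2, the glutaminase that releases ammonia for Cps1, had counts of 28567, 23954, 31684, 31948 and 21572 in the 5 saline-treated mice. In the 8 LNA29-treated mice its counts ran from 12310 through a median of 16965 to 25271. All but LNA29 replicate 1 lay below every saline-treated mouse. Its log2 fold change stood at -0.67 ± 0.17 (SE, adjusted p by limma = 0.0645), and the exact two-sided permutation test gave p = 0.00622. The smallest p that the 1287 splits of these 13 libraries allow is 0.000777.

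Asl, which cleaves argininosuccinate into arginine and fumarate, had saline counts of 27046, 25682, 26757, 28246 and 28462. With LNA29 it ran from 17063 through a median of 20492 to 28166, and again only LNA29 replicate 1 reached the saline range. Its log2 fold change stood at -0.37 ± 0.10 (SE, adjusted p by limma = 0.0818, exact permutation p = 0.00622). Arg1, the arginase that releases urea, had saline counts of 75480.0, 66008, 66204, 66930.3 and 65111. With LNA29 it ran from 45310.1 through 50397 at the median to 71739, with log2 fold change -0.35 ± 0.10 (SE, adjusted p by limma = 0.0993, exact permutation p = 0.00777). Only LNA29 replicate 1 exceeded the lowest saline value. Otc, which joins carbamoyl phosphate to ornithine, had saline counts of 33456, 33057, 30588, 33245 and 29074 and LNA29 counts from 22894 through 25134 to 32825. Its log2 fold change stood at -0.29 ± 0.09 (SE, adjusted p by limma = 0.132, exact permutation p = 0.00777), and here too LNA29 replicate 1 lay within the saline range.

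The other 6 genes did not pass the criteria. Ass1, which joins citrulline and aspartate, stood at 218946 ± 13613 on saline and 175874 ± 37289 on LNA29 (SD), and its log2 fold change of -0.34 had an unadjusted p of 0.0232 and an adjusted p by limma of 0.279. Its 95% interval ran from -0.63 to -0.05, and 3 of the 8 treated mice shared the saline range. Got1 and Oat varied most, with log2 fold changes of -0.55 (95% interval -1.17 to 0.06) and -0.54 (-1.10 to 0.03). Got1 ran from 5088 to 25199 over the LNA29-treated mice, and Oat from 24120 to 85393, so each spanned the saline range on both sides. Cps1 (-0.17, 95% interval -0.47 to 0.13) and Nags (-0.13, -0.35 to 0.08) had smaller estimates that were within the spread between mice. Glul, the pericentral glutamine synthetase, was at 70110 ± 5487 with LNA29 and 70760 ± 14705 with saline, a log2 fold change of 0.01 (95% interval -0.23 to 0.24).

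LNA29 replicate 1, a WT mouse, held the highest count of its group for 8 of the 10 genes. Without it 7 of the 10 genes passed the criteria, against 6.37% of all genes in that fit, since Ass1 (log2 fold change -0.40, adjusted p by limma = 0.127), Got1 (-0.74, 0.0918) and Oat (-0.69, 0.132) joined the 4. Without LNA29 replicate 4, Ass1 passed too (-0.39, adjusted p by limma = 0.190). Without saline replicate 1, where 2.85% of all genes were called, only Gls2 and Asl remained called, as Arg1 (-0.31) had an adjusted p of 0.237 and Otc (-0.27) one of 0.259. The call of Otc also depended on LNA29 replicates 5, 6, 7 and 8 and saline replicates 2 and 4, with adjusted p by limma of 0.212, 0.232, 0.225, 0.240, 0.230 and 0.249 when each was left out. Gls2 and Asl passed in each of the 13 leave-one-out fits, with Gls2 between -0.75 and -0.60 and Asl between -0.43 and -0.33.

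Mean counts of 9 of the 10 genes, all but Nags, were lower in floxed than in WT mice in both treatments, a difference that was not tested. Cps1 was at 239554 ± 7632 in WT and 177348 ± 4651 in floxed mice on saline, and at 211013 ± 42455 and 173296 ± 23332 on LNA29 (SD). Gls2 was at 30733 ± 1880 in 3 WT and 22763 ± 1684 in 2 floxed mice on saline, and at 20883 ± 3514 in 4 WT and 14267 ± 2123 in 4 floxed mice on LNA29 (SD). The log2 fold change of Gls2 with LNA29 was -0.57 (SE 0.13) within WT mice and -0.68 (SE 0.14) within floxed mice. Asl stood at -0.30 in WT and -0.43 in floxed mice, Arg1 at -0.30 and -0.38, and Otc at -0.24 and -0.34. Within WT mice alone 0 of the 10 genes passed the criteria by limma, against 0.555% of all genes, and 2 had an unadjusted p under 0.05, against 8.96% of all. In that fit the lowest adjusted p of these 4 genes was 0.246, for Gls2. Within floxed mice 3 passed, against 5.35% of all genes, namely Gls2 (adjusted p = 0.109), Arg1 (0.181) and Oat (log2 fold change -0.79, adjusted p = 0.160). With the background as a covariate 4 passed, against 6.25% of all genes, and Gls2 reached an adjusted p by limma of 0.00571 at a log2 fold change of -0.62. With the flow cell named in the labels as a covariate 4 passed as well, against 4.24% of all genes.

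**Figure D2:**
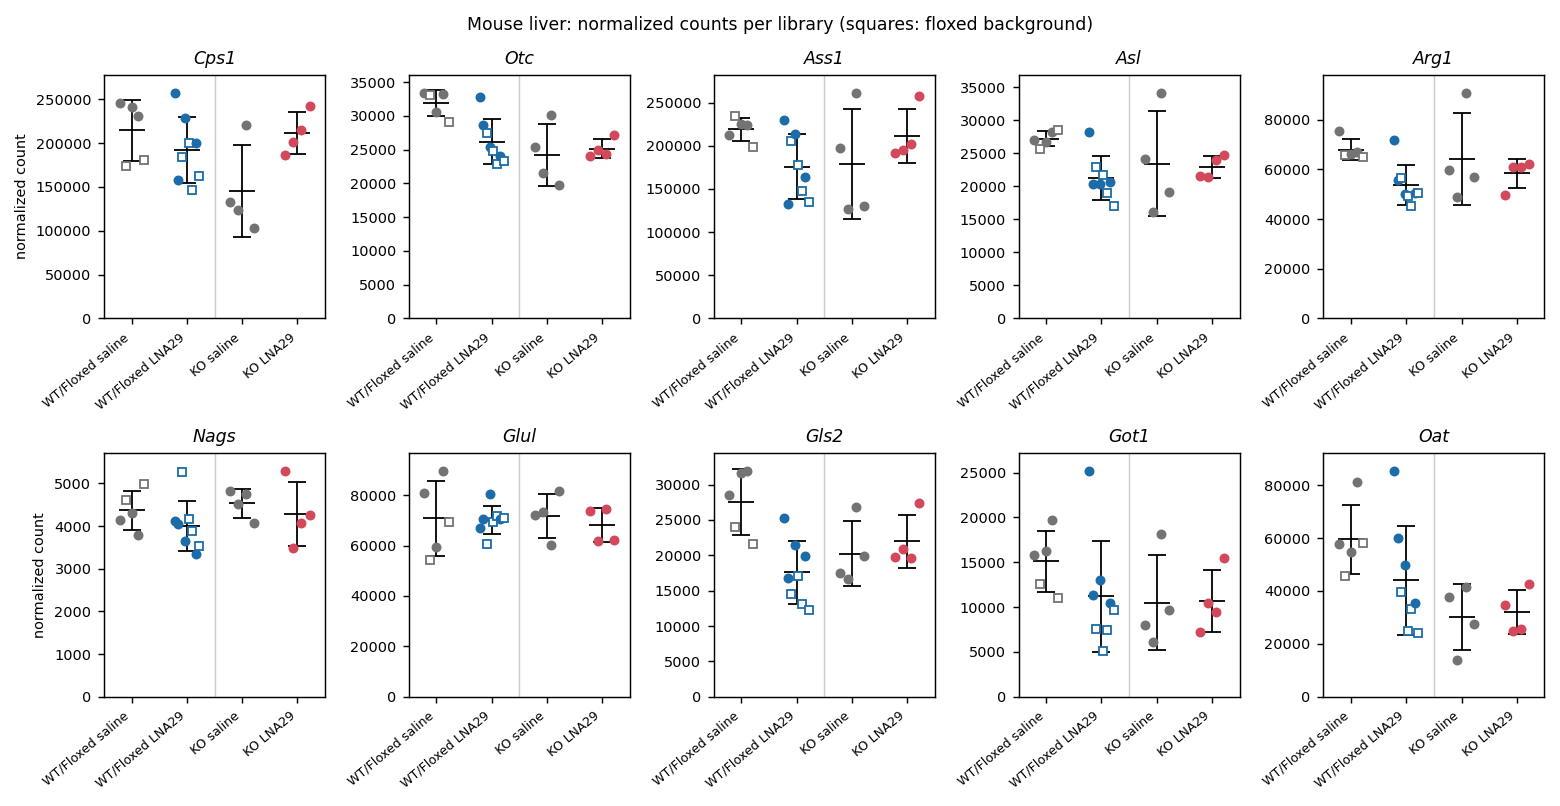
Normalized counts of the 10 genes in each mouse liver library, with horizontal marks for group means and bars for SD; squares are floxed mice, and the grey line separates the 2 tables. In the WT/Floxed panels of Gls2, Asl, Arg1 and Otc, 7 of the 8 LNA29-treated mice lie below every saline-treated mouse.

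The same criteria called 0 of the 10 genes by limma in liver labelled L-Sirt1 KO, against 1.87% of 15885 tested genes, and 1 (Cps1) had an unadjusted p under 0.05, against 11.2% of all. The groups overlapped for each of the 10, whereas they did not overlap for 6.95% of all genes tested. The median log2 fold change of the 10 genes was 0.08, against 0.00 over all genes tested, and 3 estimates were below 0. Cps1, the entry enzyme of the cycle, was at 133066, 123825, 221157 and 103247 in the saline-treated mice and at 187030, 201359, 214939 and 242773 after LNA29. Only saline replicate 3 reached the range of the LNA29-treated mice. Its log2 fold change stood at 0.60 ± 0.21 (SE, unadjusted p = 0.0180, adjusted p by limma = 0.323), and the exact permutation test gave p = 0.114, where 70 splits allow no less than 0.0286. Without saline replicate 3 the log2 fold change of Cps1 was 0.82 with an adjusted p by limma of 0.0486, and Cps1 passed the criteria, against 1.54% of all genes in that fit.

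The 4 genes lowered by LNA29 in WT/Floxed liver had estimates near 0 in mice labelled L-Sirt1 KO, with wide intervals. Gls2 was at 17490, 16599.0, 26788 and 19932 in the saline-treated mice and at 19802, 20919.6, 19663 and 27446 after LNA29, a log2 fold change of 0.13 (95% interval -0.24 to 0.50). Asl was at 24216, 16124, 34203 and 19163 on saline and at 21517, 21367, 23919.9 and 24679.7 after LNA29, a log2 fold change of 0.02 (-0.43 to 0.47). In both genes the saline-treated mice spread at least as widely as the treated ones and the groups overlapped. Arg1 had a log2 fold change of -0.10 (-0.49 to 0.30) and Otc one of 0.07 (-0.21 to 0.36). Ass1 (0.30, -0.21 to 0.81), Nags (-0.10, -0.38 to 0.18), Glul (-0.08, -0.33 to 0.18), Got1 (0.09, -0.63 to 0.82) and Oat (0.17, -0.56 to 0.89) did not pass either. The intervals of Asl and Arg1 include their WT/Floxed estimates of -0.37 and -0.35, while those of Gls2 and Otc lie above theirs of -0.67 and -0.29. The WT/Floxed estimates have errors of their own, so this is not a test of a difference between genotypes.

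Whether the response to LNA29 differed between the mice labelled L-Sirt1 KO and the WT/Floxed group was tested by an interaction term in limma over 15601 genes. The WT/Floxed side joined younger WT mice with older floxed mice, while all mice labelled L-Sirt1 KO were of the older age. Background was not a term of this fit, so genotype cannot be told apart from age and background in it. At an adjusted p under 0.2, 0 of the 10 genes passed, against 0.0449% of all genes, and 4 had an unadjusted p under 0.05, against 9.14% of all genes. These 4 were Gls2 (difference of log2 fold changes 0.80, SE 0.26, adjusted p = 0.351), Cps1 (0.76, SE 0.26, adjusted p = 0.355), Ass1 (0.64, SE 0.26, adjusted p = 0.437) and Otc (0.37, SE 0.15, adjusted p = 0.445). A positive difference means a higher log2 fold change in mice labelled L-Sirt1 KO, and 9 of the 10 estimates were positive, with Glul at -0.08 as the exception. Without saline replicate 3 of the mice labelled L-Sirt1 KO, 5 of the 10 passed, against 1.49% of all genes in that fit, namely Cps1 (0.99, adjusted p by limma = 0.111), Gls2 (0.95, 0.154), Ass1 (0.85, 0.166), Asl (0.59, 0.178) and Otc (0.48, 0.188). Without LNA29 replicate 1 of the WT/Floxed mice, Gls2 passed alone (0.88, adjusted p by limma = 0.169), against 1.28% of all genes.

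Across the 21 mouse libraries, after subtracting each table's mean log2 value, 35 of the 45 pairs of these genes had a Pearson r above 0, with a median of 0.64. Asl and Arg1 were the closest pair at r = 0.90, followed by Otc with Asl and with Arg1, both at 0.87. Glul stood apart, with 1 of its 9 pairs above 0 and a median r of -0.26. The libraries share treatment and table, so these values describe the set and carry no test. Among the 12758 other genes whose mean exceeded 50 in each table, those with the highest r to Cps1 were Cyp2b10 (0.92), Ghr, the growth hormone receptor (0.90), and Dbt, a subunit of branched-chain ketoacid dehydrogenase (0.89). Those closest to Glul were Slc3a2, the heavy chain of amino acid exchangers (0.78), Igfbp3 (0.77) and Yap1 (0.77).

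Genes that neighbour the cycle were taken from wider lists, which were chosen with earlier results of these data known. Over all genes tested in WT/Floxed liver, 1.93% were called lower and 4.35% in either direction. The 13 genes of nitrogen transfer are aminotransferases and enzymes of proline, glutamate and ornithine. Their log2 fold changes ran from -0.74 to 0.78, with a median of -0.28. Of them, 4 were called lower and 0 higher in WT/Floxed liver. They included Prodh, the first enzyme of proline breakdown (log2 fold change -0.74, adjusted p by limma = 0.0353), Gpt2, a mitochondrial alanine aminotransferase (-0.55, 0.185), and Tat, tyrosine aminotransferase (-0.48, 0.0993). Prodh fell from a saline range of 10455 to 12913 to an LNA29 range of 4302 to 10602 normalized counts. Of 15 genes of amino acid breakdown, 14 estimates were below 0 (median -0.23), but only Hal, histidine ammonia-lyase (-0.38, adjusted p = 0.108), and Hpd, of tyrosine breakdown (-0.37, 0.0847), were called lower, and Sdsl, a serine dehydratase-like enzyme, was called higher (0.55, 0.0179). Of 11 transporters 1 was called lower, namely Slc38a3, a glutamine transporter of hepatocytes and other cells (-0.43, adjusted p by limma = 0.192). Of 9 regulators only Sirt5, a mitochondrial deacylase known to act on Cps1, was called, at -0.29 (adjusted p by limma = 0.138). Leaving out single mice ended the calls of Slc38a3 in 10 of 13 fits, Gpt2 in 9, Sirt5 in 8, Hal in 5 and Tat in 2, and those of Prodh, Hpd and Sdsl in none.

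Markers of liver zones were read in the same way, with no test between zones. The 7 periportal markers had -0.26 as median log2 fold change, with 5 estimates below 0 and 1 called lower (Hal) in WT/Floxed liver, over a range of -0.61 to 0.68. The 11 pericentral markers had a median of 0.04 and a range of -0.65 to 0.09, with none called by limma. In the livers labelled L-Sirt1 KO, 0 genes of nitrogen transfer, transport, amino acid breakdown or either zone were called, and of the regulators Cebpa, a hepatocyte transcription factor, was called lower (-0.49, adjusted p by limma = 0.181). That call was lost in 6 of 8 fits that left out 1 mouse.

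**Figure D3:**
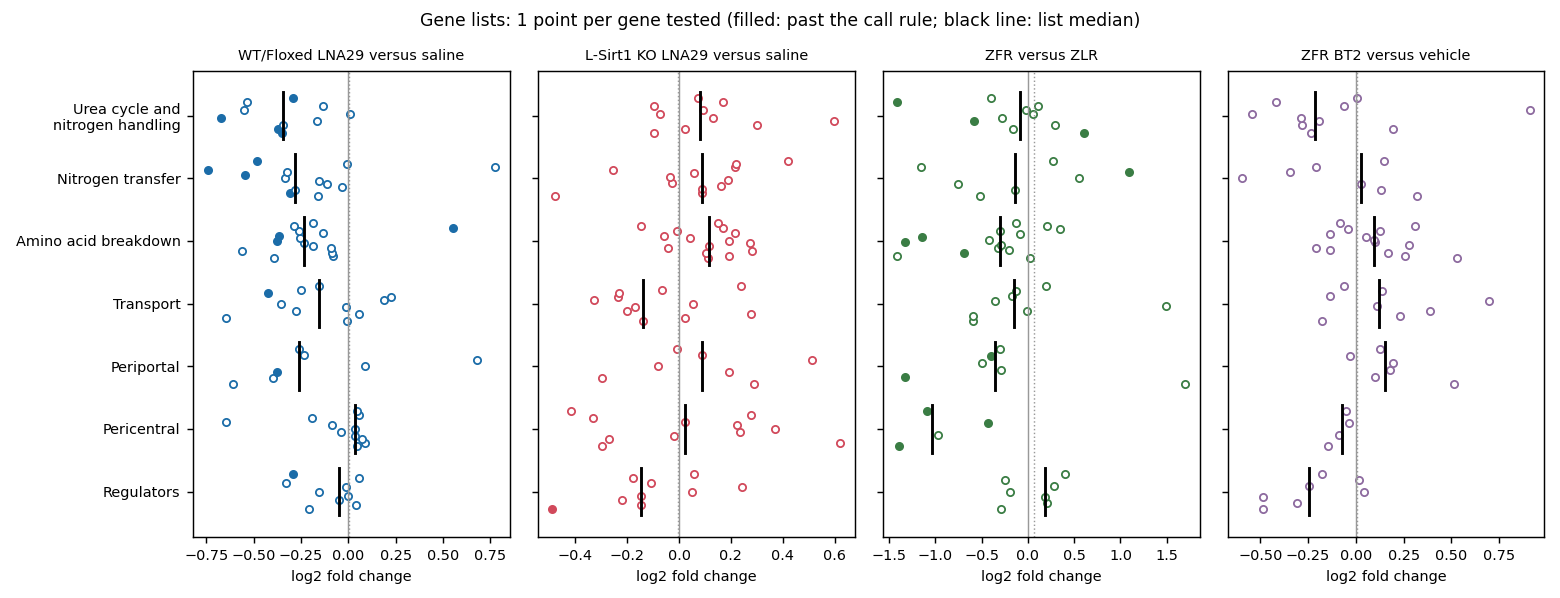
Log2 fold changes of single genes in the 10 urea cycle and nitrogen handling genes and in 6 wider lists, 1 point per gene tested and 1 panel per comparison with its own axis; filled points passed the call rule of that comparison, black lines are list medians, the solid grey line is 0 and the dotted line is the median of all genes tested. The medians in WT/Floxed liver are -0.35 for the 10 genes and -0.28 for nitrogen transfer, against 0.08 and 0.09 in mice labelled L-Sirt1 KO.

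Markers of cell types were read beside these results. All 5 tested hepatocyte markers had estimates above 0 in WT/Floxed liver (median log2 fold change 0.22), the opposite direction to 9 of the 10 urea cycle and nitrogen handling genes. Among them Apoa1, the main protein of high-density lipoprotein, was called higher (0.51, adjusted p by limma = 0.0312), with no overlap between groups, and kept its call in all 13 fits that each left out a library. With the L-Sirt1 KO label 4 of these 5 markers had estimates below 0 and 0 were called by limma. In WT/Floxed liver all 5 cholangiocyte markers had estimates above 0 and all 5 red blood cell markers had estimates below 0, with none of either called. Summed cholangiocyte counts were 3418 to 6345 with LNA29 and 2866 to 4102 with saline, and summed red blood cell counts were 31696 to 74364 and 42018 to 103170.0. The 5 macrophage markers summed to 4711 to 25523 with LNA29 and 8224 to 13887 with saline, and 0 of them were called. Of the 5 endothelial markers, Lyve1 was called lower in both genotypes (-0.51 with adjusted p by limma = 0.165 in WT/Floxed, -1.17 with 0.115 in L-Sirt1 KO). Endothelial estimates were below 0 for 4 of the 5 in WT/Floxed mice, but for 2 of the 5 with the L-Sirt1 KO label, with a median of 0.00. Of the macrophage markers, Clec4f was called lower with the L-Sirt1 KO label (-0.29, adjusted p by limma = 0.189). There 4 of the 5 macrophage estimates were below 0, and the highest was 0.71. Leaving out single mice ended the call of Clec4f in 7 of 8 fits, and that of Lyve1 in 6 of 13 in WT/Floxed mice and 2 of 8 with the KO label. Their part in the values of the urea cycle genes was not tested.

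The question in rats was whether these genes differ between obese ZFR and lean ZLR livers. Oat and Cps1 were lower and Arg1 was higher in ZFR, so 3 of the 10 genes passed an adjusted p under 0.05 by limma, against 4.25% of 8633 tested genes (2.46% lower and 1.8% higher). The groups did not overlap for 4 of the 10 genes, against 14.5% of all genes tested. The median log2 fold change of the 10 genes was -0.09, against 0.07 over all genes tested.

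Oat, which links ornithine to glutamate, had counts of 697.2, 517.1, 747.9 and 522.1 in ZLR and of 249.0, 235.3, 133.7 and 356.2 in ZFR. All ZFR lay below all ZLR. Its log2 fold change stood at -1.41 ± 0.27 (SE, adjusted p by limma = 0.0166, exact permutation p = 0.0286, the smallest that 70 splits allow). Arg1 had counts of 2033, 2117, 1664 and 1649.9 in ZLR and of 2376, 2997, 3184 and 2836 in ZFR, with no overlap and with log2 fold change 0.61 ± 0.12 (SE, adjusted p by limma = 0.0223, exact permutation p = 0.0286). Cps1 had counts of 7821, 7023, 6762 and 5156 in ZLR and of 4105, 5296, 4127 and 4261 in ZFR. ZFR replicate 2 lay above ZLR replicate 4, and the log2 fold change was -0.58 (SE 0.14, adjusted p by limma = 0.0483, exact permutation p = 0.0571).

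Otc and Gls2 also had no overlap between ZFR and ZLR but missed the adjusted threshold. Otc passed with depth weights (log2 fold change -0.44, adjusted p by limma = 0.0264) and with sample quality weights (-0.57, 0.00150), settings that called 11.7% and 13.5% of all genes. Otc was at 1209, 1047, 927.0 and 918.9 in ZLR and at 684.2, 802.5, 837.7 and 777.8 in ZFR, with log2 fold change -0.40 ± 0.11 (SE, adjusted p by limma = 0.0958, exact permutation p = 0.0286). Gls2 was at 671.8, 566.2, 600.5 and 626.5 in ZLR and at 503.1, 531.8, 497.2 and 493.1 in ZFR, with log2 fold change -0.28 ± 0.09 (SE, adjusted p by limma = 0.132, exact permutation p = 0.0286). Ass1 had a log2 fold change of 0.29 (95% interval 0.02 to 0.57, adjusted p by limma = 0.274), Asl one of -0.16 (-0.43 to 0.12) and Nags one of 0.11 (-0.21 to 0.43). Glul (0.05, -0.53 to 0.64) and Got1 (-0.02, -0.84 to 0.80) had wider intervals.

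These calls rest on few and uneven libraries. Without the 3 libraries under 1 M reads (ZLR replicates 3 and 4 and ZFR replicate 3), Oat kept its call (log2 fold change -1.12, adjusted p by limma = 0.0290), while Cps1 (-0.71, 0.0505) and Arg1 (0.39, 0.185) did not. Arg1 was 2033 and 2117 in the 2 deep ZLR libraries and 1664 and 1649.9 in the 2 shallow ones, and these libraries also differ in depth and flow cell. With the flow cell as a covariate all 3 genes were called (adjusted p by limma = 0.0314 for Oat, 0.0370 for Arg1 and 0.0377 for Cps1). TMM scaling ended the calls of Arg1 (adjusted p by limma = 0.0754) and Cps1 (0.161). Sample quality weights ended that of Arg1 (log2 fold change 0.33, adjusted p by limma = 0.0533) and kept that of Cps1 (-0.74, 0.000363). Leaving out ZFR replicate 2 ended the calls of Oat (adjusted p by limma = 0.0517) and Arg1 (0.0694). Without ZFR replicates 3 or 4, Arg1 had adjusted p of 0.0790 and 0.0681 and Cps1 of 0.146 and 0.131. Without ZLR replicate 3 they had 0.0518 and 0.0893. Cps1 also lost its call without ZFR replicate 1 (0.135), ZLR replicate 1 (0.0912) or ZLR replicate 2 (0.115), and Arg1 without ZLR replicate 4 (0.0524).

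**Figure D4:**
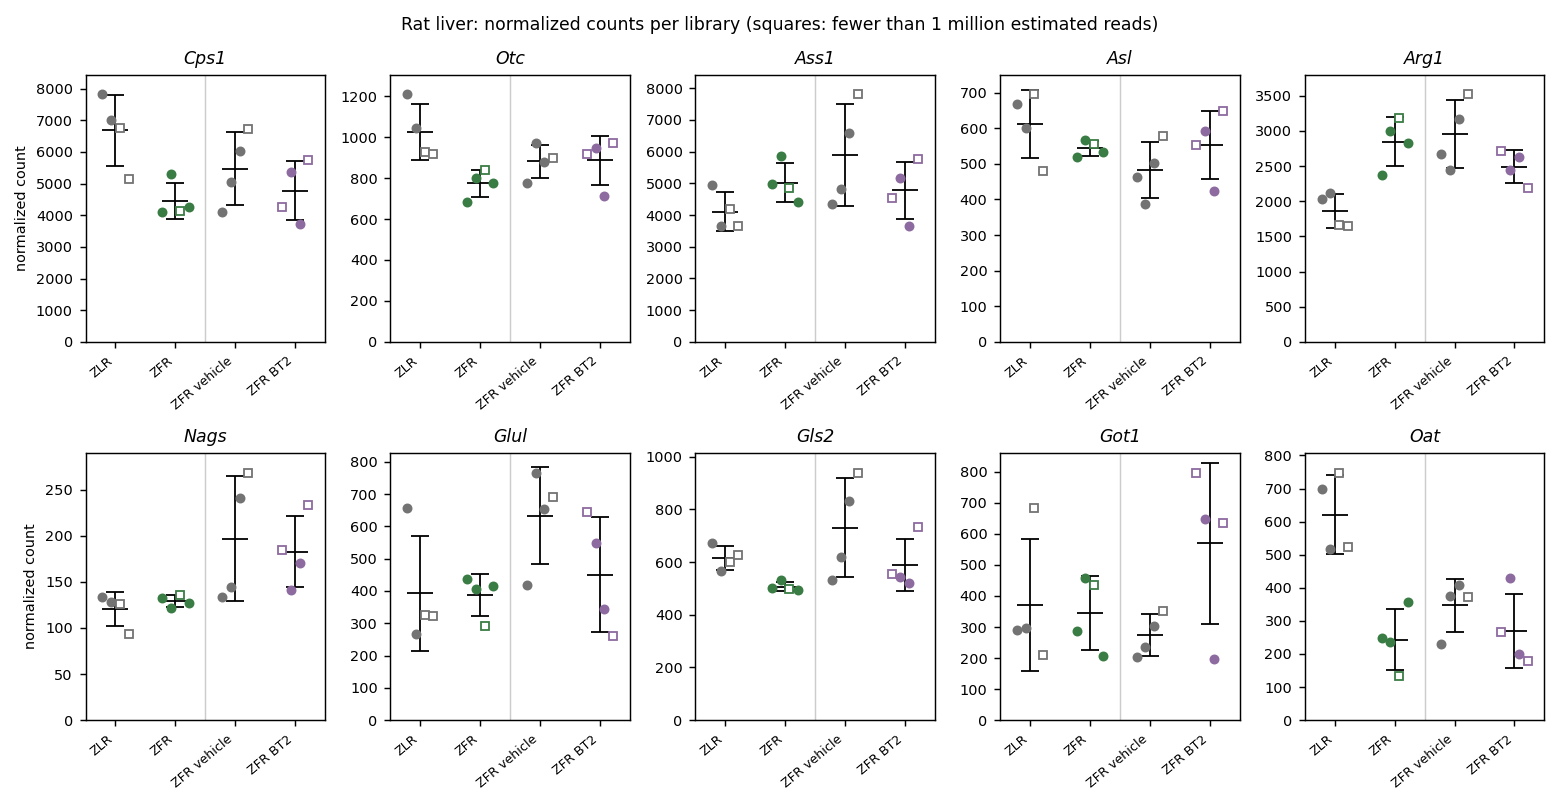
Normalized counts of the 10 genes in each rat liver library, with horizontal marks for group means and bars for SD; squares are libraries with fewer than 1 M estimated reads, and the grey line separates the 2 tables. Oat lies at 517.1 to 747.9 in ZLR and at 133.7 to 356.2 in ZFR, without overlap.

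Among the wider lists, Odc1, the enzyme that takes ornithine into polyamines, was higher in ZFR, with counts of 151.4 to 196.1 against 70.7 to 84.6 in ZLR (log2 fold change 1.09, adjusted p by limma = 0.00199). It was 1 of 7 tested genes of nitrogen transfer to be called. Over all genes tested in this comparison, 2.46% were called lower and 1.8% higher. Of 14 tested genes of amino acid breakdown, 3 were called lower and 0 higher, namely Hal (-1.32, adjusted p by limma = 0.0172), Hpd (-1.15, 0.00346) and Cbs, of the transsulfuration of homocysteine (-0.69, 0.00371). All 4 tested pericentral markers had estimates below 0, and 3 were called, namely Cyp1a2 (-1.39, adjusted p by limma = 0.0209), Lect2 (-1.09, 0.00667) and Gulo (-0.43, 0.0457). Of 6 tested periportal markers, Hal and Pigr (-0.40, adjusted p by limma = 0.0192) were called lower. Periportal estimates ran from -1.32 to 1.70, with 5 below 0 and 1 above. None of 8 transporters and 7 regulators tested was called by limma. Hepatocyte markers were called in both directions, with Fgb (-0.53), Ttr (-0.43) and 1 more lower and Tf (0.44) higher, while their summed counts overlapped at 267546 to 355573 in ZFR and 293308 to 347418 in ZLR. Stab2, an endothelial marker, was higher (1.16, adjusted p by limma = 0.0330). Its ZLR counts were only 21.1 to 34.0, where 1 read was worth up to 10.5 in the shallow libraries. Of the 4 tested endothelial markers, 2 estimates were above 0 and 2 below (median 0.05). Summed endothelial counts overlapped, at 266.8 to 384.1 in ZFR and 309.7 to 340.8 in ZLR. Cela1, a pancreatic marker, was lower (-2.18, adjusted p by limma = 0.0279) at means of 4.76 against 26.9 counts, close to the value of 1 read in shallow libraries. Leaving out single rats ended the calls of Gulo and Ttr in 7 of 8 fits, Fgb and Cela1 in 6, Stab2 in 5, Cyp1a2 and Pigr in 4 and Tf in 3, and those of Odc1, Hal, Hpd, Cbs and Lect2 in none. The part of these markers in the values of the 10 genes was not tested.

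The last comparison asked whether these genes differed between ZFR given BT2 and ZFR given vehicle. By limma 0 of the 10 genes passed an adjusted p under 0.05, as did 0 of the 8405 genes tested (0%), and under an unadjusted p of 0.05 there was 1 of the 10, Got1, against 3.95% of all genes. No setting tried gave a call among the 10. The groups overlapped for each of the 10 genes, against 2.96% of all genes tested without overlap.

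Got1, the cytosolic aspartate aminotransferase, had counts of 797.1, 648.8, 196.8 and 636.3 with BT2 and of 203.5, 236.9, 304.4 and 351.0 with vehicle. BT2 replicate 3 was below every vehicle library while the other 3 were above them all. The log2 fold change was 0.91 (95% interval 0.07 to 1.75, unadjusted p = 0.0361, adjusted p by limma = 0.898, exact permutation p = 0.143). Without BT2 replicate 3 it was 1.36 with an adjusted p by limma of 0.115. Without the 3 libraries under 1 M reads it was 0.54 (adjusted p = 0.998).

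Glul had counts of 644.1, 550.0, 345.4 and 261.0 with BT2 and of 418.5, 766.3, 653.6 and 691.8 with vehicle, a log2 fold change of -0.54 (95% interval -1.17 to 0.08, adjusted p by limma = 0.898). Oat had a log2 fold change of -0.42 (-1.02 to 0.18), Gls2 one of -0.29 (-0.71 to 0.13) and Ass1 one of -0.28 (-0.72 to 0.15). Arg1 (-0.24, -0.53 to 0.06), Cps1 (-0.19, -0.59 to 0.21), Nags (-0.06, -0.62 to 0.49), Otc (0.00, -0.29 to 0.29) and Asl (0.19, -0.17 to 0.56) lay closer to 0. Vehicle replicate 4, a library of 0.193 M reads, held the highest count of its group for 7 of the 10 genes, and vehicle replicate 1 the lowest for 8. None of the wider lists held a call by limma in this comparison.

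**Figure D5:**
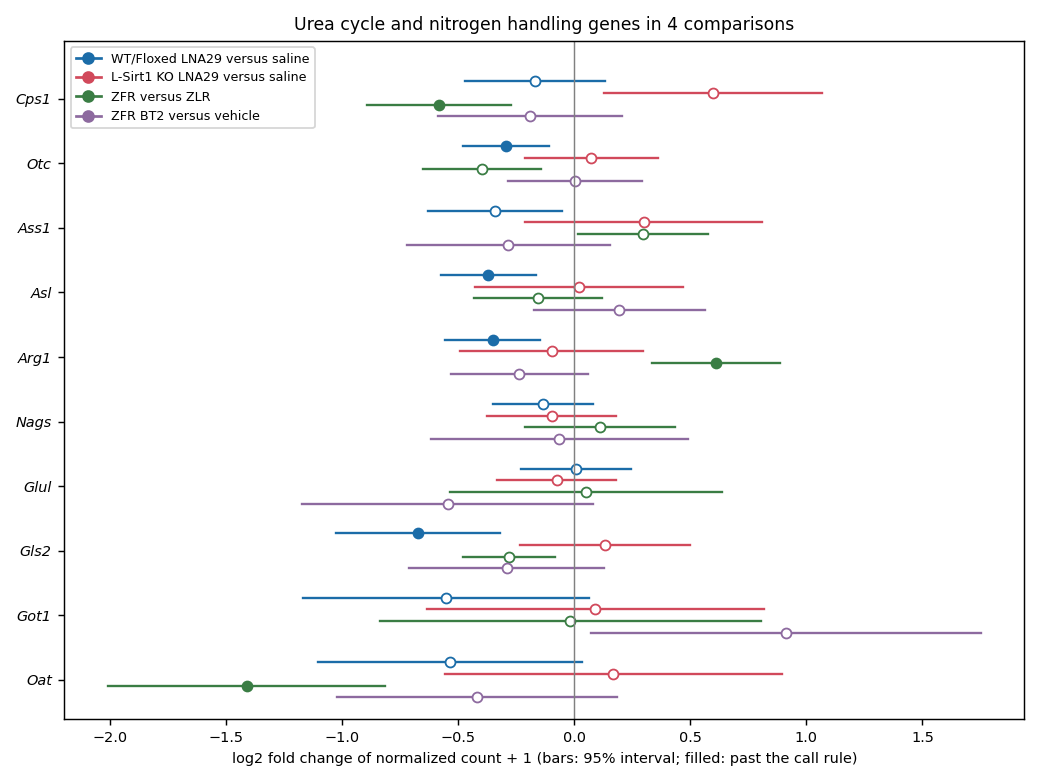
Log2 fold changes of the 10 genes with 95% intervals in the 4 comparisons, on the scale of log2(normalized count + 1); filled symbols passed the call rule of their comparison. Filled symbols are Gls2, Asl, Arg1 and Otc below 0 in WT/Floxed mice, and in ZFR against ZLR Oat and Cps1 below 0 and Arg1 above 0.

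The set of genes called differed between comparisons. For Arg1 the log2 fold change was 0.61 in ZFR against ZLR and -0.35 in the WT/Floxed comparison, and it passed in both. Otc and Gls2 had estimates below 0 in both (-0.29 and -0.67 in WT/Floxed mice, -0.40 and -0.28 in ZFR) and passed in mice alone. The rules were unlike, with an adjusted p under 0.2 in mice and under 0.05 in rats. At 0.2 Otc (adjusted p by limma = 0.0958) and Gls2 (0.132) also passed in ZFR. None of the 10 genes passed at 0.05 in WT/Floxed mice, where the smallest adjusted p by limma was 0.0645. Oat and Cps1 passed in ZFR and had estimates of -0.54 and -0.17 in WT/Floxed mice. Species, sex, age, depth and call rule differ between these comparisons, so their values stand side by side without a test of the difference.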

How the data were processed

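Liver poly(A) RNA was sequenced from 21 mice and 16 rats. The authors aligned reads with STAR 2.5.3a to mm10 or rn6, quantified with Salmon 0.6.0 and deposited DESeq2-normalized counts per gene, a signal normalized separately in each of 4 tables. Whole reads could not be recovered, since 69.3% to 90.3% of low values were whole multiples (tolerance 0.01) of the value of 1 read, so no count model was used. Depth was estimated as the sum divided by that value, and covers counting error only.

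Unnamed entries (381 in mice, 201 in rats) and repeated names (130 and 4523) were left out. Limma 3.58.1 (R 4.3.3, trend) was run on log2(normalized count + 1) over genes with a mean of at least 10, with Benjamini-Hochberg adjustment. Fold changes on this scale understate those of low genes. Intervals use limma's moderated SE and degrees of freedom. Mouse calls needed p under 0.05, adjusted p under 0.2, a mean above 50 and a fold above 1.2, as in the study's criteria. Rat calls needed adjusted p under 0.05, and the interaction adjusted p under 0.2. Two-sided exact permutation tests used log2 means (scipy 1.17.1, Python 3.11.15). The procedure was tested on simulated data. Titles give each library an identifier of its own, read here as 1 animal per library.

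The 10 genes and all lists were chosen with earlier results of these data known. Named are the 10 genes, at most 3 called genes of each wider list per comparison by absolute log2 fold change, and the 3 genes most correlated with Glul and with Cps1. Results were recomputed with TMM scaling (trims 0.3 and 0.05), sample quality weights, depth weights, a pseudocount of 10, no minimum mean, flow cell or background covariates, replicate blocks, WT or floxed mice alone, another adjusted p, deep rat libraries alone, and each library left out. Figures used matplotlib 3.10.9.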

Additional observations from a re-analysis of the deposited data

Results flagged for a closer look

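Over 80 combinations of gene and group, 10 held a library farther from the rest of its group than Dixon's 95% critical value allows, and chance flags about 1 in 20 groups. In WT/Floxed mice these were LNA29 replicate 1 for Arg1 (71739 normalized counts, others 45310.1 to 56568) and Got1 (25199, others 5088 to 13071), LNA29 replicate 3 for Nags (5276, others 3346 to 4175) and saline replicate 1 for Arg1 (75480.0, others 65111 to 66930.3). In mice labelled L-Sirt1 KO they were LNA29 replicate 4 for Ass1 (258079, others 191732 to 201415) and Gls2 (27446, others 19663 to 20920) and LNA29 replicate 1 for Arg1 (49805, others 60934 to 62169). In rats they were ZFR replicate 2 for Cps1 (5296, others 4105 to 4261), ZLR replicate 1 for Glul (656.7, others 266.2 to 326.6) and ZFR BT2 replicate 4, a library under 1 M reads, for Gls2 (734.2, others 522.2 to 555.1).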

How the results depend on the processing

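Of 1476 values of single genes under alternatives, 1181 kept direction and side of the threshold, 224 lost and 25 gained a call, and 46 changed sign, none of them called in either fit. The sign changes were in log2 fold changes near 0. With single libraries left out these ran from -0.22 to 0.085 for Arg1, -0.14 to 0.22 for Asl, -0.12 to 0.40 for Got1, -0.17 to 0.36 for Oat and -0.017 to 0.19 for Otc in mice labelled L-Sirt1 KO, from -0.082 to 0.0995 for Glul in WT/Floxed mice, from -0.18 to 0.0061 for Glul and -0.071 to 0.13 for Nags in the interaction, from -0.23 to 0.11 for Nags and -0.056 to 0.11 for Otc with BT2, and from -0.10 to 0.33 for Glul, -0.24 to 0.33 for Got1 and -0.0038 to 0.17 for Nags in ZFR against ZLR. Glul in WT/Floxed mice was -0.071 in WT mice only, -0.0059 with the replicate block and -0.060 with sample quality weights, and Nags in the interaction was -0.052 with the replicate block. With BT2, Otc was -0.017 with TMM scaling, -0.0015 with depth weights and -0.089 without libraries under 1 M reads, and Nags 0.084 with sample quality weights. In ZFR against ZLR, Nags was -0.045 without libraries under 1 M reads, Glul -0.016 with depth weights, and Got1 0.0027 with TMM scaling, 0.0044 with depth weights, 0.027 with sample quality weights and 0.031 without libraries under 1 M reads. Counts of the 10 genes called are given next, with the share of all genes called at the same setting in brackets. In WT/Floxed mice 4 were called (4.35%), against 0 in WT mice only (0.555%) and 0 at an adjusted p under 0.05 (1.3%). No minimum mean gave 2 (1.36%), the replicate block 0 (0.354%) and sample quality weights 7 (8.27%). Leaving out 1 library gave 2 to 7 (2.41% to 6.37%). In mice labelled L-Sirt1 KO the main count of 0 (1.87%) became 1 (Cps1) with sample quality weights (5.06%), and 0 to 1 with 1 library left out (0.485% to 2.68%). Of the interaction the 0 (0.0449%) became 5 with sample quality weights (7.82%) and 0 to 5 with 1 library left out (0% to 1.49%). In ZFR against ZLR the 3 (4.25%) became 1 with TMM scaling (3.1%) and 5 at an adjusted p under 0.2 (10.9%). They became 0 with no minimum mean (1.3%) or the replicate block (2.56%), and 1 without libraries under 1 M reads (5.13%). There 1 to 2 were called with 1 library left out (2.6% to 4.4%). BT2 gave 0 throughout. Over all genes, calls ran from 56 (replicate block) to 1308 (sample quality weights) around 688 in WT/Floxed mice, from 37 to 804 around 297 in L-Sirt1 KO, from 0 to 1220 around 7 for the interaction, from 221 to 1169 around 367 in ZFR against ZLR, and from 0 to 3 around 0 with BT2. Same-numbered libraries correlated at -0.35 to 0.28, and some but not all correlated best with their own number. The replicate number was not used as a pairing in the main fits, and so few libraries cannot decide whether it is one. Causes of these shifts were not tested. In ZLR replicate 4 Nags rested on 9 reads.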
